A study of Arabidopsis thaliana with 54 samples.

Results

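The miR158 family of Arabidopsis thaliana was followed in small RNA counts from whole Col-0 seedlings under 3 day lengths and at 6 times of day. Its members were all features of the count table named ath-miR158 with a letter after the number (ath-miR158a-3p, ath-miR158a-5p and ath-miR158b), which gave 3 of the 286 microRNA features and 3 of the 223651 features of any kind. They are miR158a-3p and miR158a-5p, which come from the opposite arms of 1 hairpin, and miR158b, which comes from another gene. Levels are given in CPM, the counts of a feature scaled to a common library size by edgeR's cpm function, from TMM-scaled totals that leave out the table's entry named genome.

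A plant microRNA is cut by DICER-LIKE 1 from the stem of a folded precursor as a duplex of 2 strands, 1 from the 5p arm and 1 from the 3p arm. In most cases 1 strand is loaded into ARGONAUTE1 and guides it to complementary transcripts, and the other, the star strand, is degraded. For miR158 the 3p strand is the guide. The family is known from Brassicaceae, and is therefore called young, and its known targets include transcripts of pentatricopeptide repeat (PPR) proteins, which process RNA in plastids and mitochondria.

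All seedlings were wild type (Columbia 0, labelled without a transgene or mutation) and were grown on Murashige and Skoog medium. They were stratified for 48 h in the dark and then grown for 10 days with 12 h of light and 12 h of darkness. On day 11 they were moved to long day (16 h of light) or to short day (8 h of light), or they remained in the starting cycle (equinox day, 12 h of light), and shoots with roots were frozen on day 13. The long-day and short-day seedlings had thus both met a change of photoperiod shortly before harvest, and the equinox-day seedlings had not. Each photoperiod was sampled at Zeitgeber time (ZT, hours after lights on) 4, 8, 12, 16, 20 and 24, with 3 libraries named A, B and C per time, which gave 18 libraries per photoperiod and 54 in all. Whether the replicates were separate cultures is not stated, and the p-values below rest on the spread among these libraries, which may be technical. The table names no messenger RNA, so the tissue could not be checked against marker genes. In whole seedlings, fewer cells of a type and less RNA per cell cannot be told apart.

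The total per library was 13.7 to 23.3 M counts (M, mega), of which the genome entry took 79.6 to 92.9%. The counts outside it numbered 1.33 to 3.59 M per library, and 114873 to 409911 of them were in microRNA features. On the first principal component 5 of the 18 short-day libraries (ZT4 B, ZT12 C, ZT16 B, ZT20 A and ZT24 C) stood apart from all libraries of the other photoperiods. They were kept, and where a call on a named feature changed without them the value without them is given.

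The mature sequences are shown because the 2 guides are nearly the same molecule, which bears on how reads can be assigned to them. They are RefSeq sequences of TAIR10.1, written 5′ to 3′ with the seed (bases 2 to 8) in capitals.
miR158a-3p: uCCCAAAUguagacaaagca
miR158b: cCCCAAAUguagacaaagca
miR158a-5p: cUUUGUCUacaauuuuggaaa
The guides miR158a-3p and miR158b are 20 nt long and share the seed. They differ in 1 of 20 bases, the substitution U1C counted from 1 at the 5′ end of miR158a-3p. The star strand miR158a-5p is 21 nt long and has another seed. Each sequence had 1 exact match in the TAIR10.1 genome.

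The precursors are shown with the annotated mature sequences in capitals.
MIR158a: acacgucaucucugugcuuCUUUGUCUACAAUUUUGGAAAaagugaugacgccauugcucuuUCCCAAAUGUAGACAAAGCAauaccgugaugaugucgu
MIR158b: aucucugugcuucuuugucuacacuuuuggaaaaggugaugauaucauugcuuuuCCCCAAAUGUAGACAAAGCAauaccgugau
MIR158a (AT3G10745) lies on the minus strand at chr3:3366331-3366430 of TAIR10.1 and is 100 nt long. No other annotated gene overlaps it, and its neighbours are ASD1 (AT3G10740) at 591 bases and AT3G10750 at 496 bases. MIR158b (AT1G55591) lies on the plus strand at chr1:20772218-20772302, is 85 nt long and is also intergenic, between AT1G55590 at 337 bases and WRKY10 (AT1G55600) at 1743 bases. The hairpins share 78 identical columns of alignment with 7 mismatches and 15 gap columns, and RNAfold gave them minimum free energies of -39.7 and -28.9 kcal/mol. No 5p strand is annotated for MIR158b. The stretch of its precursor opposite the guide (positions 13 to 33) matches miR158a-5p in 20 of 21 bases, with the substitution A12C counted from the 5′ end of miR158a-5p. The sources used here do not say how reads with 1 mismatch were assigned. Counts of miR158b can therefore include reads of miR158a-3p with a changed or missing first base, and counts of miR158a-5p can include reads from MIR158b.

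The guide strand miR158a-3p was the second most abundant microRNA feature, at 13918 ± 3573 CPM (SD, n = 54). Its counts ran from 14183 to 55174 per library and made up 13.5 ± 2.43% (SD, n = 54) of all microRNA counts. In mean CPM it stood between miR161.1, another microRNA directed at PPR transcripts, with 32772 ± 10291 CPM, and miR162-3p, which targets DCL1, with 8822 ± 3041 CPM (SD, n = 54 each). It was below miR161.1 in 54 of 54 libraries and above miR162-3p in 53 of 54. The star strand miR158a-5p had 1676 ± 856 CPM (SD, n = 54; counts of 1713 to 13773). The second guide, miR158b, had 63.8 ± 16.9 CPM (SD, n = 54), and its 64 to 276 counts per library make its counting error the largest of the family.

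Between photoperiods, averaged over the 6 times, none of the 3 members passed the test. The miR158a-3p level was 12604 ± 3168 CPM in long day (lowest 8938, median 11379, highest 19353), 14509 ± 3861 CPM in equinox day (lowest 9340, median 13459, highest 24489) and 14641 ± 3479 CPM in short day (lowest 8856, median 14093, highest 21401; SD, n = 18 each). The ranges overlapped almost wholly. The long-day level against the short-day level gave a log2 fold change of -0.23 ± 0.12 (SE; edgeR quasi-likelihood test, Benjamini-Hochberg adjusted p = 0.170), and it was higher in long day at 1 of 6 times. Against equinox day the log2 fold change was -0.22 ± 0.12 (SE, adjusted p = 0.260). Short day against equinox day gave 0.02 ± 0.12 (SE, adjusted p = 0.935).

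The rarer members gave the same answer. The miR158a-5p level was 1931 ± 1236 CPM in long day (lowest 800.2, median 1375, highest 5297), 1493 ± 503 CPM in equinox day (lowest 861, median 1418, highest 2873) and 1604 ± 629 CPM in short day (lowest 805, median 1278, highest 3113; SD, n = 18 each). Its medians lay close together, and the long-day mean was raised by a few high libraries, described below by time. Long day against short day gave a log2 fold change of 0.12 ± 0.15 (SE, adjusted p = 0.581) and long day against equinox day 0.23 ± 0.15 (SE, adjusted p = 0.330). In a fit to microRNAs alone the latter was 0.38 (edgeR adjusted p = 0.0485). That fit, here and below, was filtered, scaled and adjusted over microRNA features only. Its adjusted p-values thus rest on fewer tests than those over 8869 features and are not on a like footing with them. The share of features that passed in it is not given here. The miR158b level was 57.9 ± 14.8 CPM in long day, 67.0 ± 19.0 CPM in equinox day and 66.5 ± 15.8 CPM in short day (SD, n = 18 each). Long day against short day gave -0.22 ± 0.14 (SE, adjusted p = 0.253) for miR158b.

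In edgeR the family thus had 0 of 3 members past the threshold of 0.05 in each photoperiod contrast, and 0 of 3 at an unadjusted p under 0.05. Among all 8869 features tested, 25.1% passed for long day against short day, 15.7% for long day against equinox day and 32.8% for short day against equinox day. DESeq2 called 2 of 3 members lower in long day than in short day, with -0.31 on the log2 scale for miR158a-3p (adjusted p = 0.0309) and -0.30 for miR158b (adjusted p = 0.0427), where 29.3% of all features passed in DESeq2. It called 0 of 3 members in the other contrasts, where 18.4% (long day against equinox day) and 36.4% (short day against equinox day) passed. The edgeR test with DESeq2 size factors (-0.31, adjusted p = 0.0430) or without TMM factors (-0.26, adjusted p = 0.0421) also called miR158a-3p for long day against short day, so that this call depends on the scaling. Without the 5 short-day libraries that stood apart, the long-day against short-day value was -0.39 (adjusted p = 0.0628) for miR158a-3p, -0.34 (adjusted p = 0.167) for miR158b and -0.03 (adjusted p = 0.942) for miR158a-5p, still with 0 of 3 past the threshold in edgeR, and 11.5% of the 9269 features then tested passed. The values for short day against equinox day were then 0.19, 0.13 and 0.27 in the same order, with adjusted p of 0.370, 0.601 and 0.251.

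**Figure D1:**
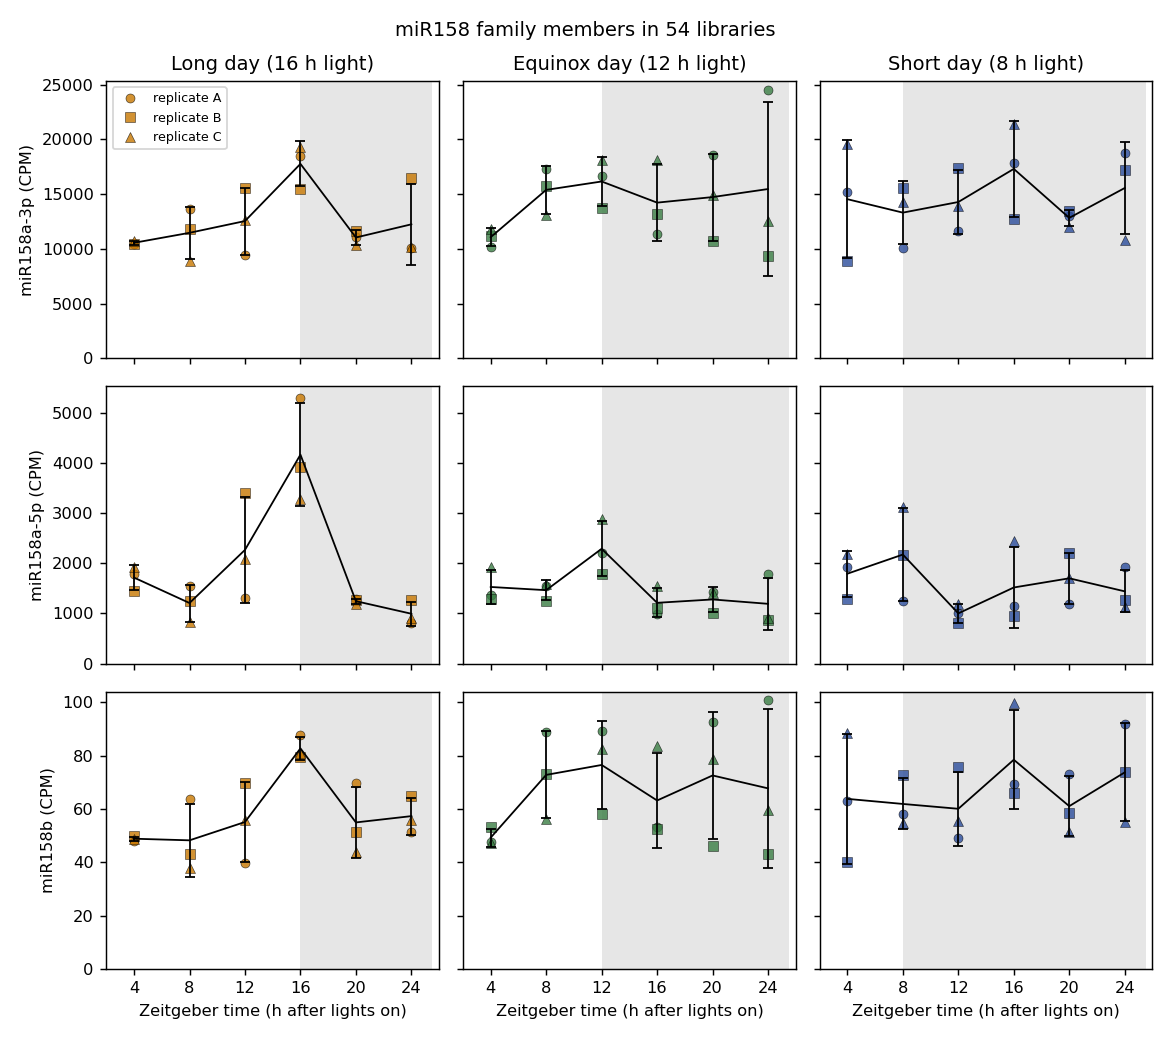
CPM of the 3 members (rows) by Zeitgeber time in hours, in long, equinox and short day (columns). Points are single libraries (A, B and C), lines join the means of 3 libraries, bars are SDs and grey marks darkness; the long-day ZT16 libraries of miR158a-5p, at 3287 to 5297 CPM, stand above those of every other time of that photoperiod except ZT12 B at 3405 CPM.

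As fitted over all features, miR158a-5p was the member that passed the joint test of times, and it did so in long day alone. In long day its libraries A, B and C read 1782, 1437 and 1921 CPM at ZT4, and 1554, 1248 and 819 CPM at ZT8. They read 1312, 3405 and 2081 CPM at ZT12, and 5297, 3912 and 3287 CPM at ZT16, when the lights went off. They then read 1284, 1262 and 1186 CPM at ZT20, and 800.2, 1262 and 917 CPM at ZT24. The 3 libraries at the end of light were thus the highest of the photoperiod, apart from ZT12 B, and the level was back among the low values 4 h later. The joint test of the 6 long-day times gave an adjusted p of 0.000340 (edgeR quasi-likelihood test), the smallest p of the 149 microRNA features tested, and 1 of 3 members passed where 13.3% of all features did. Without the B libraries of all groups the adjusted p was 0.0668. The highest time mean was 4.19 times the lowest.

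In equinox day, where the lights went off at ZT12, miR158a-5p read 1553, 1240 and 1595 CPM at ZT8, 2198, 1794 and 2873 CPM at ZT12, and 991, 1106 and 1537 CPM at ZT16. At ZT4 the libraries lay at 1296 to 1926 CPM, at ZT20 at 999 to 1423 CPM, and at ZT24 at 861 to 1794 CPM. In short day, where darkness began at ZT8, they read 1919, 1279 and 2176 CPM at ZT4, 1248, 2159 and 3113 CPM at ZT8, and 1009, 805 and 1187 CPM at ZT12. The later short-day times were 954 to 2446 CPM at ZT16, 1181 to 2207 CPM at ZT20 and 1126 to 1918 CPM at ZT24. In all 3 photoperiods the highest time mean of miR158a-5p was the sample at the end of light. The joint tests of time did not pass in equinox day (adjusted p = 0.367) or in short day (adjusted p = 0.536), where 5.20% and 3.99% of all features passed. They did pass in a fit to microRNAs alone, with the adjustment over microRNA features only (edgeR adjusted p = 0.00932 and 0.00676), and in equinox day also without TMM factors (adjusted p = 0.0227).

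The course of miR158a-5p over the day differed between photoperiods, with an adjusted p of 0.00511 for photoperiod by time (edgeR quasi-likelihood test), where 5.92% of all features passed. Without the A libraries of all groups this adjusted p was 0.0952, and without the B libraries it was 0.414. At single times, long day exceeded short day at ZT16 by a log2 fold change of 1.46 ± 0.37 (SE, adjusted p = 0.0107), with every long-day library (3287 to 5297 CPM) above every short-day library (954 to 2446 CPM). Of all features 3.91% passed there, and 11.9% had every long-day library on top. Without long-day replicate A, or short-day replicate A or B, at ZT16 this value no longer passed (adjusted p of up to 0.164). It also did not pass without the 5 short-day libraries that stood apart (1.29, adjusted p = 0.102) or without a filter on low counts (1.49, adjusted p = 0.101). At ZT12 the libraries did not overlap either (1312 to 3405 against 805 to 1187 CPM), at 1.18 ± 0.37 (SE, adjusted p = 0.0599), where 3.47% of all features passed and 10.7% were without overlap in this direction; with single libraries left out the adjusted p ran from 0.0365 to 0.295. The ZT12 value passed under 5 of 11 other settings, namely without TMM factors, with totals that include the genome entry, among microRNAs alone, without the 10 most abundant features and in DESeq2, and its adjusted p ran from 0.00337 to 0.551 over the 11. At ZT8, when short day reached its end of light, the sign was opposite, at -0.85 ± 0.37 (SE, adjusted p = 0.301), and this value did not pass. At ZT4, ZT20 and ZT24 the log2 fold changes were -0.06, -0.45 and -0.54, none past the threshold; without the 5 libraries they were -0.42, -0.80 and -0.84, also not past it. At ZT4, ZT8, ZT20 and ZT24, 0.124%, 1.36%, 1.23% and 0.631% of all features passed. At ZT12 long day was in the light and short day 4 h into darkness. At ZT16 long day was at its end of light and short day 8 h into darkness. Day length and light against darkness cannot be told apart at ZT12 and ZT16, which the test of photoperiod by time takes in.

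Set against the sample taken 4 h later, a comparison chosen after the values were seen, miR158a-5p at the end of light was higher in long day by a log2 fold change of 1.74 ± 0.37 (SE, adjusted p = 0.00322), or 3.35-fold. Of all features 14.1% passed in this contrast. In equinox day the log2 fold change was 0.92 ± 0.37 (SE, edgeR adjusted p = 0.545, where 0.372% of all features passed), and in short day it was 1.12 ± 0.37 (SE, edgeR adjusted p = 0.162, where 1.09% did). In each photoperiod every library at the end of light lay above every library 4 h later, and so did 16.9%, 9.90% and 6.66% of all features in long, equinox and short day. In a fit to microRNAs alone, adjusted over microRNA features only, the equinox-day and short-day values passed, at 1.02 (adjusted p = 0.0373) and 1.27 (adjusted p = 0.00475). Without replicate A at ZT8 the short-day value was 1.54 (adjusted p = 0.0355). Without the A libraries or the B libraries of all groups the long-day adjusted p was 0.0612 or 0.122.

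As fitted here over all features, neither guide passed the tests over the day. In long day miR158a-3p read 18516, 15441 and 19353 CPM at ZT16 and 11122, 11636 and 10361 CPM at ZT20, so that the libraries of the 2 times did not overlap. Of all features 16.9% likewise had every long-day library at ZT16 above every one at ZT20. At the other long-day times its lowest library was 8938 and its highest 16492 CPM. The end of light against 4 h later gave 0.69 ± 0.31 (SE, edgeR adjusted p = 0.126) for miR158a-3p in long day, 0.18 ± 0.31 in equinox day and -0.10 ± 0.31 in short day. The adjusted p for long day was 0.0267 in DESeq2, 0.0430 with DESeq2 size factors, 0.0286 among microRNAs alone and 0.0403 without the 5 short-day libraries that stood apart. The miR158b libraries read 87.7, 79.5 and 81.1 CPM at ZT16 in long day, above every other long-day library (highest 69.7 CPM, at ZT12 B), and the end of light against 4 h later gave 0.59 ± 0.34 (SE, edgeR adjusted p = 0.254) for miR158b, 0.27 in equinox day and 0.04 in short day. The share of all features with ZT16 above every other long-day library was not counted. The joint tests of time gave adjusted p of 0.384, 0.810 and 0.999 for miR158a-3p and of 0.456, 0.778 and 0.999 for miR158b in long, equinox and short day, and photoperiod by time gave 0.911 and 0.867. In a fit to microRNAs alone, adjusted over microRNA features only, the test of time in long day passed for miR158a-3p (adjusted p = 0.0330) and miR158b (adjusted p = 0.0472). Without TMM factors the test of time in equinox day passed for miR158a-3p (adjusted p = 0.0263). The highest of the 18 group means was 1.68 times the lowest for miR158a-3p and 1.72 times for miR158b, against 4.19 times for miR158a-5p. When the 18 groups were put in order of their means, neighbours overlapped in all 17 steps for both guides and in 16 of 17 steps for miR158a-5p, the exception being long day at ZT16 and the group next below it, equinox day at ZT12.

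**Figure D2:**
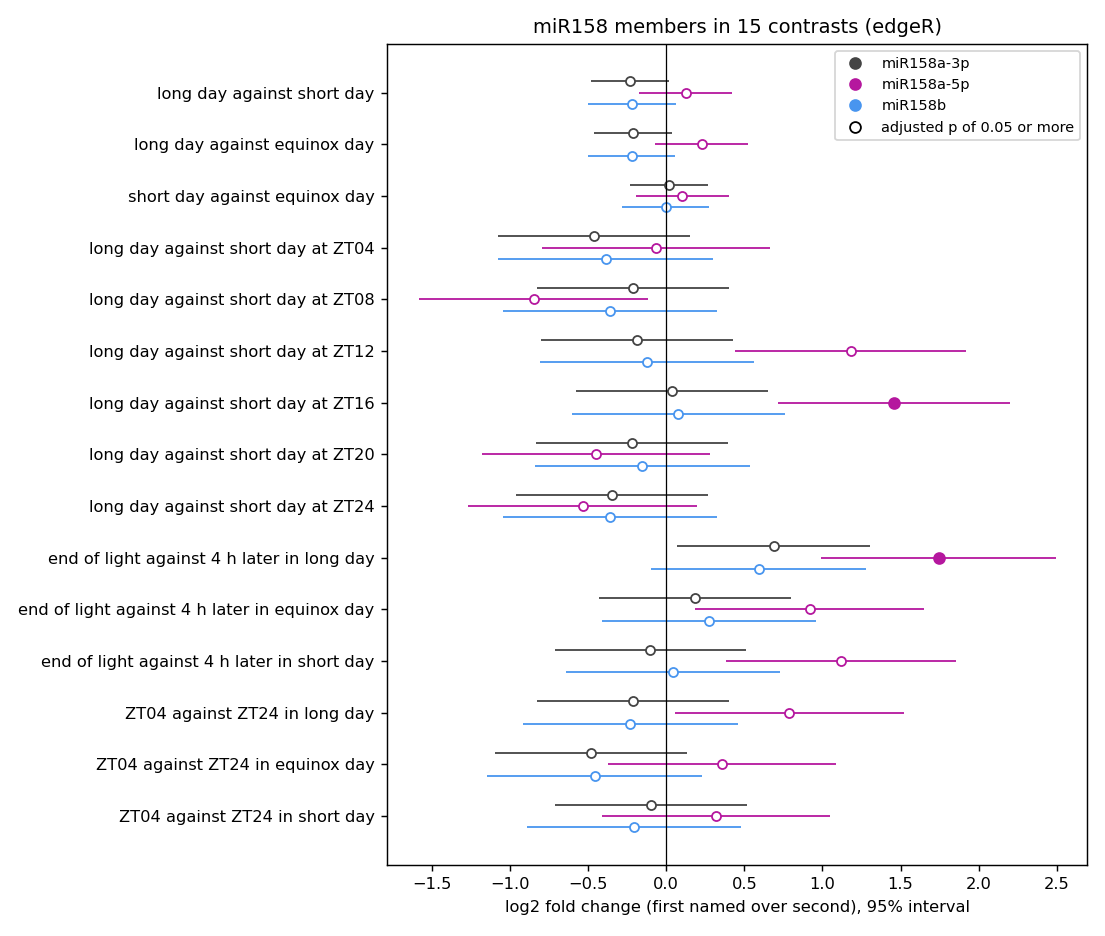
Log2 fold change with its 95% interval for each member in 15 contrasts of the edgeR fit over 54 libraries; filled points have an adjusted p under 0.05. The 2 filled points are miR158a-5p, at 1.46 for long day against short day at ZT16 and at 1.74 for the end of light against 4 h later in long day.

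The genome share of the libraries moved with miR158a-5p. The 3 long-day libraries at the end of light had 79.6 to 82.6% of their counts in the genome entry and those 4 h later 88.5 to 90.2%. In short day the shares were 80.3 to 88.7% at ZT8 and 84.3 to 90.3% at ZT12, and in equinox day 85.7 to 88.5% at ZT12 and 86.6 to 90.5% at ZT16. Over 54 libraries the log2 CPM of miR158a-5p had a Pearson r of -0.55 (permutation p = 2e-05) and a Spearman rho of -0.48 (permutation p = 0.00029) with the genome share, and r was -0.51 without the 2 libraries farthest from the median share. The permutations exchanged all 54 libraries freely, although they form 18 groups, so that these p-values can be too small. Within long, equinox and short day r was -0.62, -0.13 and -0.70. With the genome share as a covariate in the edgeR fit, an alternative added after the values were seen, the end of light against 4 h later in long day fell to 0.96 ± 0.34 (SE, adjusted p = 0.107) for miR158a-5p and to 0.03 (adjusted p = 0.962) for miR158a-3p. The genome shares of these 2 groups did not overlap, so that share and end of light cannot be told apart in this contrast. Far fewer features of any kind passed it in that fit, as counted in the closing section. In the same fit miR158a-5p still passed for time in long day (adjusted p = 0.00118), for photoperiod by time (adjusted p = 0.00358) and for long day against short day at ZT16 (1.19 ± 0.31, SE, adjusted p = 0.0136). The photoperiod value of miR158a-3p for long day against equinox day was -0.37 ± 0.10 (SE, adjusted p = 0.0101) in that fit, and -0.31 ± 0.10 (SE, adjusted p = 0.0233) for long day against short day, both past the threshold.

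The arms of miR158a can be compared without any scaling, since both are counted in the same library. Over 54 libraries miR158a-5p had 12.1 ± 4.75 counts per 100 counts of miR158a-3p (SD; lowest 4.64, highest 28.6), and the counting error of a single library's ratio was 0.966 to 2.5%. In long day the ratio in libraries A, B and C was 13.9, 21.9 and 16.4 at ZT12, 28.6, 25.3 and 17.0 at ZT16, 11.5, 10.8 and 11.4 at ZT20, and 7.93, 7.65 and 9.03 at ZT24. It was then higher again at ZT4, at 17.0, 13.8 and 17.9, and lower at ZT8, at 11.4, 10.5 and 9.16. The time means in long day were 16.2 at ZT4, 10.4 at ZT8, 17.4 at ZT12, 23.6 at ZT16, 11.3 at ZT20 and 8.20 at ZT24, so that the ratio was higher at ZT12 and ZT16 than at ZT8, and lower at ZT20 and ZT24 than at ZT4.

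In equinox day the ratio was 13.3, 11.6 and 16.3 at ZT4, 8.96, 7.87 and 12.2 at ZT8, 13.2, 13.1 and 15.8 at ZT12, and 8.74, 8.36 and 8.48 at ZT16. Its libraries at ZT20 and ZT24 all lay between 7.30 and 9.48. In short day the ratio was 12.6, 14.4 and 11.1 at ZT4, 12.4, 13.9 and 21.8 at ZT8, and 8.68, 4.64 and 8.55 at ZT12. The short-day libraries lay at 6.45 to 11.4 at ZT16, at 9.08 to 16.4 at ZT20 and at 7.43 to 10.4 at ZT24. In every photoperiod the 3 ratios at the end of light were above the 3 ratios taken 4 h later, and those at ZT4 above those at ZT24.

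The ratio changed over the day in long day (permutation test of the sum of squares between times, 100000 draws, p = 6e-05, adjusted p = 0.000720 over 12 ratio tests). The highest time mean was 1.50 above the lowest on the log2 scale, a range that was not itself tested. The ratio also changed in equinox day (permutation p = 0.00235, adjusted p = 0.00940), where the range was 0.83. In short day the range was 1.15, and the test did not pass (permutation p = 0.0252, adjusted p = 0.0757). Without replicate C at ZT16 or replicate A at ZT20 its adjusted p was 0.0396 or 0.0361. Whether the course of the ratio differed between photoperiods was not tested. Averaged over times, the ratio was 14.5 ± 5.96 in long day, 10.5 ± 2.88 in equinox day and 11.2 ± 4.07 in short day (SD, n = 18 each). Long day was above equinox day by 0.42 on the log2 scale (permutation p = 0.00051, adjusted p = 0.00306), while long day against short day gave 0.36 (permutation p = 0.0486, adjusted p = 0.117) and short day against equinox day 0.05 (adjusted p = 0.936). The long-day and equinox-day means lay farthest apart at ZT16, at 23.6 and 8.53. They were 16.2 and 13.7 at ZT4, 10.4 and 9.68 at ZT8, and 17.4 and 14.0 at ZT12. At ZT20 they were 11.3 and 8.82, and at ZT24 8.20 and 7.95. At ZT16 long day was at its end of light and equinox day 4 h into darkness. Day length and light against darkness cannot be told apart there. With only the B and C libraries, the adjusted p was 0.116 for time in long day, 0.294 for time in equinox day and 0.116 for long day against equinox day. Time in equinox day also did not pass without the B libraries (adjusted p = 0.0537) or without the C libraries (adjusted p = 0.123).

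**Figure D3:**
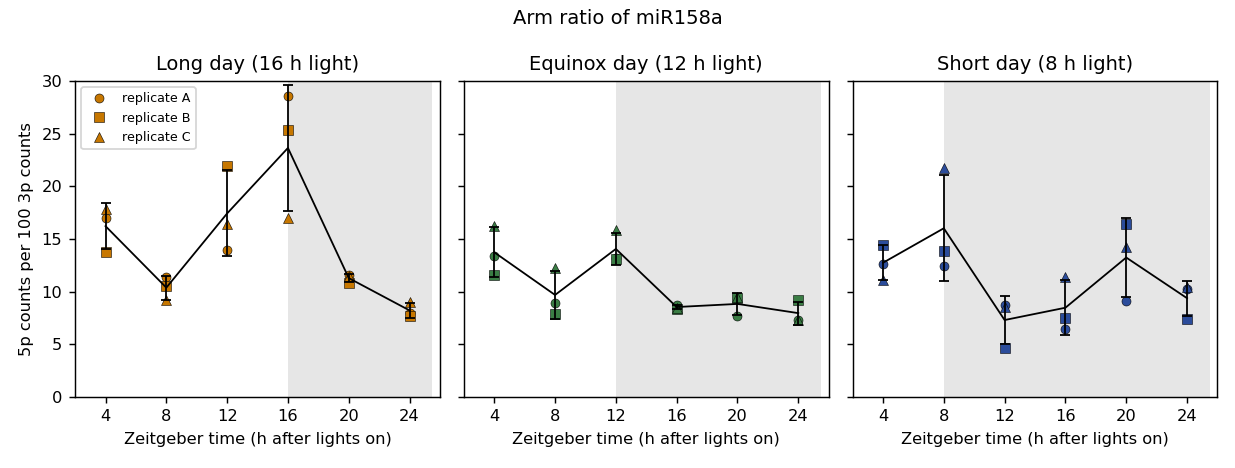
Counts of miR158a-5p per 100 counts of miR158a-3p by Zeitgeber time in hours, in long, equinox and short day. Points are single libraries, lines join means of 3 libraries, bars are SDs and grey marks darkness; the ratio at the end of light is 17.0 to 28.6 in long day, 13.1 to 15.8 in equinox day and 12.4 to 21.8 in short day.

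The microRNA share of the counts outside the genome entry moved with the arm ratio. Over 54 libraries the log2 ratio had a Pearson r of -0.52 (permutation p = 6e-05) and a Spearman rho of -0.52 (permutation p = 3e-05) with that share, and r was -0.48 without the 2 farthest libraries. The 2 measures share a term: miR158a-3p divides the ratio and made up 13.5% of the microRNA counts on average. A part of the negative relation is therefore built in. The permutations again exchanged all 54 libraries freely, so that these p-values can be too small. Within long, equinox and short day r was -0.54, -0.53 and -0.44. The genome share gave r = -0.33 (permutation p = 0.015, adjusted p = 0.02 over 4 relations) and rho = -0.24 (permutation p = 0.0775). At the end of light and 4 h later the microRNA share was 6.98 to 11.0% and 9.98 to 11.2% in long day, 9.60 to 14.0% and 9.68 to 12.9% in equinox day, and 7.71 to 9.44% and 8.65 to 10.1% in short day. The part of these shares in the arm ratio was not tested.

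Among 25 precursors whose 5p and 3p arms each had a feature of their own name and at least 540 counts together, miR158a had its rarer arm at 10.8% of the counts of both arms, the 14th from the lowest. Next below it were miR167c (targets ARF6 and ARF8 transcripts) at 9.82% and miR846 (targets jacalin-related lectins) at 7.45%. Next above were miR408 (targets transcripts of copper proteins) at 15.6% and miR837 at 15.9%. The rarer arm was the 5p arm in each of these, as in miR158a. Whether it is also the star strand of these other precursors was not checked. A ratio of rarer to commoner arm that was higher in every library at the end of light than in any 4 h later occurred in 24.0% of the 25 precursors in long day, 20.0% in equinox day and 28.0% in short day. In all 3 photoperiods it occurred in 8.00%, that is in miR158a and in miR396b, whose 3p arm is the rarer and whose 5p arm targets growth-regulating factors. The differences on the log2 scale were 1.03, 0.71 and 1.15 for miR158a and 0.86, 0.71 and 0.48 for miR396b in long, equinox and short day. A ratio higher in every library at ZT4 than in any at ZT24 occurred in 24.0%, 16.0% and 8.00% of the precursors, and miR158a, with differences of 0.98, 0.78 and 0.45, was the precursor that had it in all 3 photoperiods (4.00%). Both patterns were chosen after the values of miR158a were seen, and miR158a itself is counted in each of these shares. They are therefore no independent background for it. The count minimum held for both arms together, and 6 of the 25 precursors had fewer than 54 counts of the rarer arm over all 54 libraries, so that the pseudocount and the depth of the other arm set much of their ratio. With at least 540 counts required of the rarer arm itself, a limit chosen after the values were seen, 14 precursors remained. The end-of-light pattern then occurred in 35.7% of them in each photoperiod and in 14.3% in all 3, again miR158a and miR396b. The ZT4 pattern occurred in 35.7%, 21.4% and 7.14% in long, equinox and short day, and miR158a was again the precursor that had it in all 3.

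**Figure D4:**
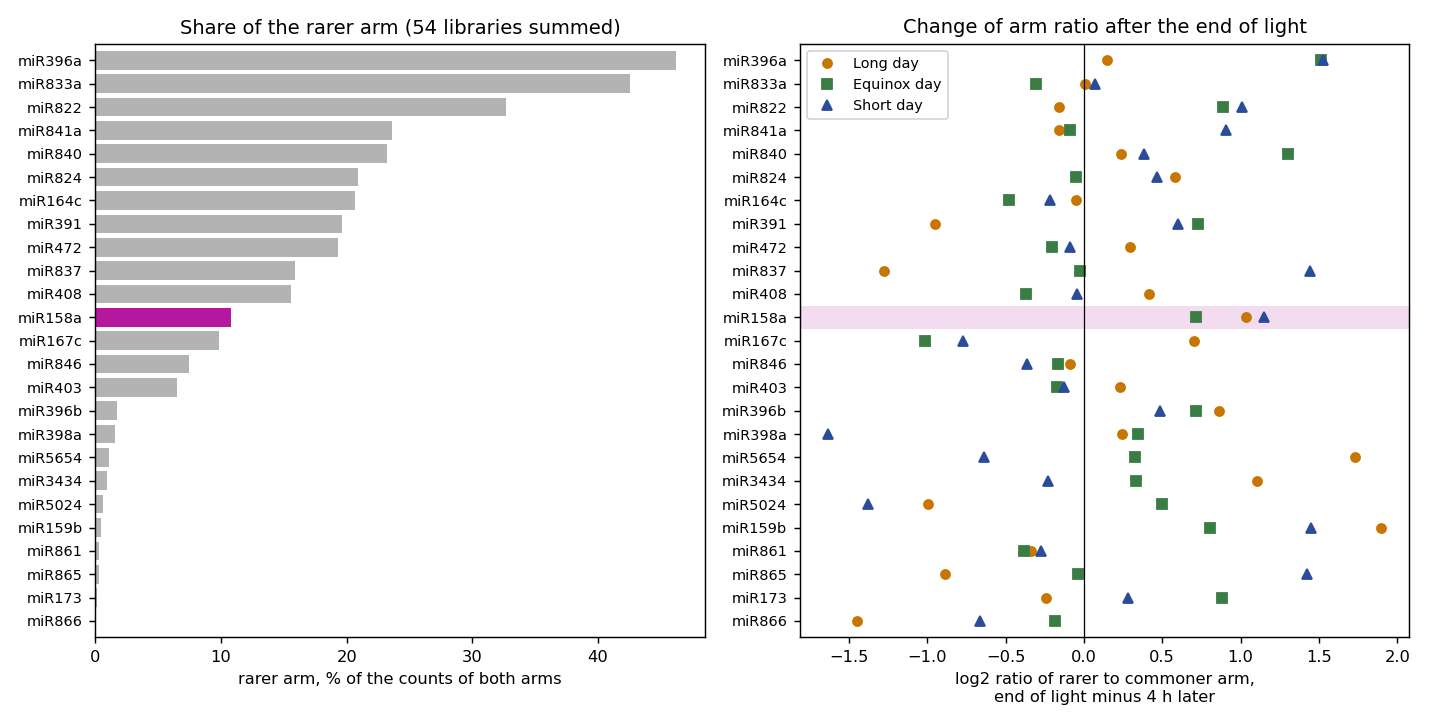
Left, the share of the rarer arm in the counts of both arms for 25 precursors, summed over 54 libraries, with miR158a (10.8%) in colour. Right, the change in the log2 ratio of rarer to commoner arm from 4 h after the end of light to the end of light, means of 3 libraries, where all 3 photoperiods of miR158a lie between 0.71 and 1.15.

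The 2 guides kept a nearly fixed proportion. There were 0.460 ± 0.0520 counts of miR158b per 100 counts of miR158a-3p (SD, n = 54; lowest 0.365, highest 0.626), with means of 0.461, 0.461 and 0.458 in long, equinox and short day. The counting error of this ratio in a single library was 6.03 to 12.5%. None of the 6 permutation tests of this ratio passed, all with an adjusted p of 0.936 or more, and the log2 differences were 0.01 for long day against short day, -0.0033 for long day against equinox day and -0.01 for short day against equinox day. Without the 5 short-day libraries that stood apart they were 0.06, -0.0033 and -0.06, with an adjusted p of 0.513 or more. The chi-square of the counts against a single proportion was 1.77 per degree of freedom for miR158b and 620 for miR158a-5p, where counting error alone gives about 1. This measure grows with the counts, whose medians were 137.5 for miR158b and 3379 for miR158a-5p, so the 2 values do not compare their spread. Within groups it was 2.10 for miR158b and 159 for miR158a-5p, so that replicates also differed by more than counting error. Over the 18 group means of log2 CPM the Pearson correlation with miR158a-3p was 0.96 for miR158b and 0.36 for miR158a-5p. These features share libraries and scaling, and for the guides possibly reads, as their sequences above show. Whether a part of the miR158b counts were reads of miR158a-3p was not tested.

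**Figure D5:**
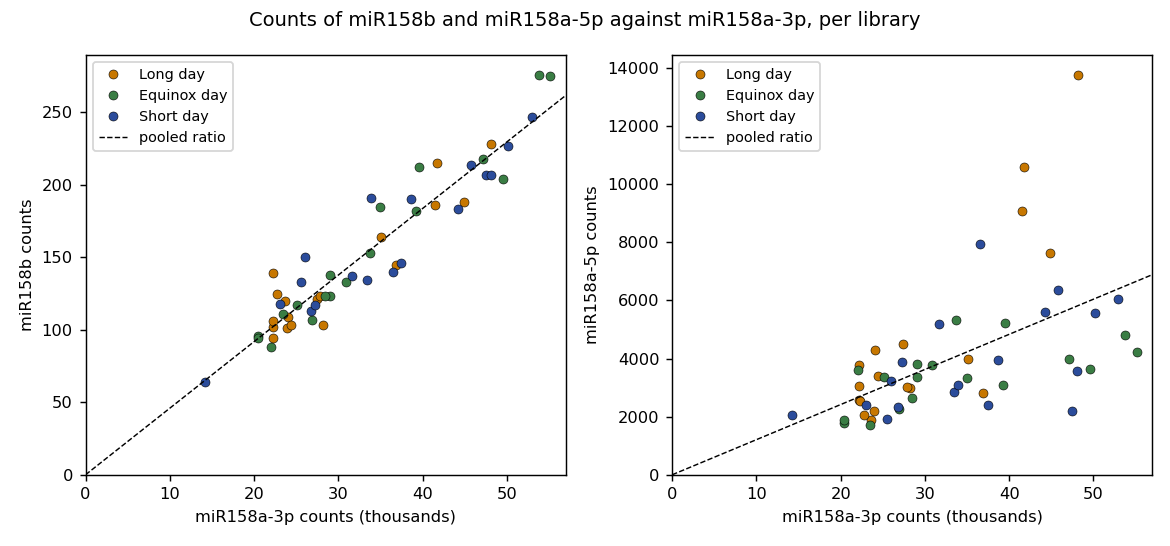
Counts per library of miR158b (left) and of miR158a-5p (right) against those of miR158a-3p, for 54 libraries coloured by photoperiod; dashed lines are the pooled ratios of 0.459 and 12.1 per 100. The miR158b points follow the line, and the miR158a-5p points scatter widely around it.

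Outside the family, the tested microRNAs whose 18 group means were most like those of miR158a-3p were miR171b-3p with miR171c-3p (1 shared feature, which targets HAIRY MERISTEM transcripts) with r = 0.76, miR5640 with r = 0.75 and miR5012 with r = 0.70. The least alike was miR5659 with r = -0.39. For miR158a-5p, looked up after its values were seen, the most alike were miR779.2 with r = 0.83, miR829-5p with r = 0.76 and miR165a-5p, the star strand of a microRNA that targets HD-ZIP III transcripts, with r = 0.73.

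The microRNAs miR161.1, miR161.2 and miR400 are known to act on PPR transcripts directly, and miR173-5p through secondary small RNAs. These 4 were tested, and the star strand miR173-3p, the remaining feature on the list of 5, was too rare to be tested. For long day against short day 0 rose and 2 of 4 fell, beside 25.1% of all features called in either direction, miR173-5p by -0.86 ± 0.20 (SE, adjusted p = 0.00170), from 180.0 ± 80.7 CPM in short day to 96.0 ± 33.8 CPM in long day (SD, n = 18 each), and miR400 by -0.90 ± 0.34 (SE, adjusted p = 0.0420). The values for miR161.2 and miR161.1 were -0.51 (adjusted p = 0.0925) and 0.09 (adjusted p = 0.664), and the median of the 4 was -0.68. For short day against equinox day, where 32.8% of all features passed, 3 of 4 rose, miR173-5p by 0.71 (adjusted p = 0.00630), miR400 by 1.04 (adjusted p = 0.0159) and miR161.2 by 0.65 (adjusted p = 0.0240), while miR161.1 gave -0.26 (adjusted p = 0.134). Without the 5 short-day libraries that stood apart, 1 of 4 fell for long day against short day, miR173-5p (-0.93, adjusted p = 0.00218), and miR400 no longer passed (-0.89, adjusted p = 0.0973), while the same 3 rose for short day against equinox day; 11.5% and 21.9% of all features passed there. In that fit miR161.1 was at -0.13 (adjusted p = 0.660) for long day against short day. For long day against equinox day, where 15.7% of all features passed, 0 of 4 passed in edgeR, also at an unadjusted p under 0.05. miR400 and miR161.2 were rare, at 2.59 to 5.13 and 12.3 to 18.4 CPM in the photoperiod means.

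Of 82 features listed as young microRNAs besides miR158, 43 were tested. In long day against short day 2 were higher and 9 lower (median log2 fold change -0.23), beside 12 higher and 31 lower of all 149 microRNAs (median -0.17). In long day against equinox day 0 were higher and 2 lower (median -0.18), beside 3 and 8 (median -0.16). In short day against equinox day 4 were higher and 3 lower (median 0.09), beside 13 and 15 (median 0.03). Without the 5 short-day libraries, 0 were higher and 11 lower of 44 tested for long day against short day (median -0.33), beside 5 and 38 of 151 microRNAs (median -0.33). For short day against equinox day 5 were then higher and 0 lower (median 0.24), beside 19 and 2 (median 0.19). Of all features, called in either direction, 25.1%, 15.7% and 32.8% passed in the 3 contrasts with all libraries, in the order above. Without the 5 libraries 11.5% passed for long day against short day and 21.9% for short day against equinox day. With the edgeR settings used for these counts, 0 of the 3 members of the miR158 family passed in these contrasts, with or without those libraries; the other settings that called members are given above.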

How the data were processed

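The deposited table holds whole-number read counts per feature and library, as the authors made them. Tools used were cutadapt 3.4, Bowtie2 2.5.1 and SAMtools, per the submitters' processing notes; how they were set, which build was used and how reads were counted or shared out are points not given in the sources used here. From the counts, edgeR 4.0.16 (R 4.3.3, limma 3.58.1) fitted 1 coefficient for each of 18 groups over 54 libraries. The genome entry (86.1% of all counts) was left out, TMM factors were used, and filterByExpr (minimum count 10, minimum total 15) kept 8869 features, all 3 members included. Each contrast used the quasi-likelihood test, adjusted by Benjamini-Hochberg over the 8869 features, with a threshold of 0.05 and 36 residual degrees of freedom. Of 19 contrasts, 6 (the end of light and ZT4 against ZT24) were added after the values were seen. Ratios were log2 values with a pseudocount of 0.5, tested by permutation with 100000 draws. The tests between photoperiods were two-sided and permuted within times. The tests over the times of a photoperiod used the sum of squares between times. Scripts were tested on simulated data. Sequences are from RefSeq TAIR10.1 and were folded with RNAfold 2.7.2. Counting errors of ratios cover counting error only, and the intervals of log2 fold changes come from the edgeR fit, which takes in the spread between libraries. No 2 replicates agreed within counting noise (lowest chi-square per degree of freedom 8.54). Members and lists were chosen with earlier results of these data known. The rule for names took all members, the 3 features most like miR158a-3p and the least alike, its neighbours in abundance and in arm share (2 on each side), and all tested PPR-directed triggers. The alternatives were DESeq2 1.42.0, other scalings and filters, a replicate block, a covariate and libraries left out.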

Additional observations from a re-analysis of the deposited data

Results flagged for a closer look

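The course of miR158a-5p over the 6 times differed between the 3 photoperiods, with an adjusted p of 0.00511 in the joint edgeR quasi-likelihood test of photoperiod by time. It was singled out because an effect under the same contrast differed between groups. The time means ran from 993 ± 240 to 4165 ± 1029 CPM in long day, from 1191 ± 523 to 2289 ± 545 CPM in equinox day, and from 1000.3 ± 191 to 2173 ± 933 CPM in short day (SD, n = 3 each).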

How the results depend on the processing

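Of the 69 member and ratio results tested, 7 passed the threshold as reported and 62 did not, and 0 reversed a called direction under the alternatives run. The values below are log2 differences; for tests over times they are the difference between the extreme times. DESeq2 size factors brought miR158a-3p past the threshold for long day against short day (-0.31) and for the end of light in long day (0.84), as did the DESeq2 test (-0.31 and 0.84, and -0.30 for miR158b). Without TMM factors miR158a-3p passed for long day against short day (-0.26) and for time in equinox day (0.87), and so did miR158a-5p for time in equinox day (1.25). A fit to microRNAs alone, adjusted over microRNA features only, brought past the threshold miR158a-5p for long day against equinox day (0.38), for time in equinox day (1.32) and short day (1.27) and for the end of light in equinox day (1.02) and short day (1.27). In it miR158a-3p passed for time (0.68) and the end of light (0.54) in long day, and miR158b for time in long day (0.56). Without the 5 short-day libraries that stood apart, the end of light in long day passed for miR158a-3p (0.94), and miR158a-5p no longer passed for long day against short day at ZT16 (1.29), nor did it without a filter (1.49). At ZT12 miR158a-5p passed without TMM factors (0.98), with totals that include the genome entry (1.43), among microRNAs alone (1.24), without the 10 most abundant features (1.27) and in DESeq2 (1.14). For miR158a-3p the values at ZT4 and ZT24 moved from -0.46 to -0.88 and from -0.35 to -0.69 without the 5 libraries, and did not pass. The genome share as a covariate brought miR158a-3p past the threshold for long day against short day (-0.31) and against equinox day (-0.37), and ended the call of miR158a-5p at the end of light in long day (0.96). Genome share and end of light cannot be told apart in the latter contrast.

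Leaving out the libraries of 1 letter in all groups ended a call in 12 cases, all of miR158a-5p or the arm ratio. Each of the 7 results that passed as reported was lost without at least 1 letter. For miR158a-5p photoperiod by time, the end of light in long day and long day against short day at ZT16 (1.10 and 1.26, adjusted p = 0.309 and 0.351) were lost without A and without B, and time in long day without B (adjusted p = 0.0668). For the arm ratio long day against equinox day and time in long day were lost without A, and time in equinox day without A, B or C (adjusted p of 0.294, 0.0537 and 0.123). The values ran from 2.13 to 2.55 for photoperiod by time (2.45 without A), from 1.74 to 2.32 for time in long day and from 1.54 to 2.14 for the end of light in long day (1.80 without B). The arm ratio ran from 0.36 to 0.51 for long day against equinox day, from 1.32 to 1.79 for time in long day and from 0.68 to 0.98 for time in equinox day (0.81 without A). With single libraries left out the end of light in short day ran from 0.90 to 1.54 for miR158a-5p, and the arm ratio over times in short day from 0.85 to 1.31. With a replicate block the long-day end of light was 1.75 for miR158a-5p (adjusted p = 0.00351), and no call changed. The letters did not pair the samples: 16 of 54 libraries correlated best with their own letter, and the mean correlation of same-letter deviations was -0.0098.

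Scaling with totals that include the genome entry moved the median log2 fold change of all features by 0.18 for long day against equinox day and by 0.33 for the end of light in long day. The count of features past the threshold was 358 instead of 1180 for time in long day, and 52 instead of 1253 for the end of light in long day, with the genome share as a covariate. Direction signs of values that did not pass turned in places, for example miR158a-5p for long day against short day, at -0.03 without the 5 short-day libraries. Causes were not tested. The 64 to 276 counts of miR158b per library give a counting error of 6.03 to 12.5% in its ratio to miR158a-3p.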
